A study of Mus musculus with 12 samples.

Results

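The circadian clock genes examined here were Arntl (also called Bmal1), Clock, Per1, Per2, Per3, Cry1, Cry2, Nr1d1, Nr1d2 and Dbp, 10 genes chosen by name. All 10 were found by symbol in both deposited count tables, among 16805 genes in the neutrophil table and 16954 in the monocyte table, and all 10 passed the filter on low counts in every comparison. Their transcripts were measured by RNA-seq of cells selected from the spleens of WT mice, in 4 groups of 3 libraries. Neutrophils, captured with anti-Ly6G, came from mice with tumors and no therapy (control) and from mice 12 h after CTT, a cryo-thermal therapy that freezes and then heats a tumor. Monocytes, captured with anti-CCR2, came from mice 5 days after CTT, either with CTT alone or with CTT and anti-Ly6G, an antibody against neutrophils, so that both monocyte groups had received CTT. The labels call the libraries biological replicates and do not say how many mice each held. P-values thus rest on the spread among the 3 libraries of a group, which may be technical in part. The sources used here do not give the hour of day at which spleens were collected, the tumor line or the ages of the mice.

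The mammalian clock is a loop of transcription. CLOCK and BMAL1 bind E-box sequences and switch on the Per and Cry genes, the Rev-erb genes Nr1d1 and Nr1d2, and Dbp. PER and CRY proteins return to block CLOCK and BMAL1, REV-ERB proteins repress Arntl through ROR response elements, and DBP activates genes that carry D-boxes. In leukocytes this loop is known for setting daily rhythms of cell traffic and of inflammatory responses. Per1 is also an immediate early gene that glucocorticoids and other signals induce directly.

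All 10 are protein-coding genes. In mm10 coordinates Per1 lies at chr11:69095108-69109965 (plus strand), Nr1d1 at chr11:98767932-98775377 (minus), Nr1d2 at chr14:18204056-18239106 (minus), Arntl at chr7:113178471-113314126 (plus) and Cry1 at chr10:85131700-85185054 (minus).

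The promoter sequences below were printed because each holds an element of this loop. They were read from a RefSeq table (GRCm38.p6, the assembly also called mm10) that gives 250 bases before and 50 after each transcript start, and 9 of the 10 genes matched (all but Per2). Both strands were searched for the E-box CACGTG, for the D-box as TTATGTAA or TTACGTAA, and for the ROR response element, each on its own, and no window of the 9 genes held more than 1 kind. An E-box was found in 2 of the 9 genes and in 8.09% of all 27025 genes (7.15% of 32851 windows). A D-box was found in 1 of 9 and in 1.23% of all genes (1.06% of windows), and a ROR response element in 1 of 9 and in 0.459% of all genes (0.384% of windows). Capitals mark the element, and each sequence is given 5′ to 3′ on the strand of its gene. A match describes these letters only. The Per1 E-box lies at −166 from a transcript start (chr11:69098753-69098818, plus strand), inside the annotated Per1 gene but outside its exons. For Cry1 the E-box lies at −60 (chr10:85185079-85185144, minus strand), outside any annotated gene. Per3 has D-boxes at −205 and −158 (chr4:151044833-151044900 and chr4:151044786-151044853, minus strand), outside exons and within the span of Camta1, a gene on the same strand. In Arntl the ROR response element begins 26 bases after a start (chr7:113207528-113207557, plus strand), in an exon annotated as untranslated.
Per1 E-box: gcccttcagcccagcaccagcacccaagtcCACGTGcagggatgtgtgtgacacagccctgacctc
Cry1 E-box: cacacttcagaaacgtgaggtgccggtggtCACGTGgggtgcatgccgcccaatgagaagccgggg
Per3 upstream D-box: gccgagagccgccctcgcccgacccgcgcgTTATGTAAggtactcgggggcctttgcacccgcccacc
Per3 downstream D-box: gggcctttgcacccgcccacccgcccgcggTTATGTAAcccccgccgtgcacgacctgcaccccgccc
Arntl ROR response element: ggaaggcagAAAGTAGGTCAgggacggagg

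Libraries held 30942849 to 34935547 counted reads in neutrophils and 31865982 to 35956571 in monocytes. The lowest count of any clock gene in any library was 131 (Nr1d1) and the highest 13023 (Per1). The selected cells were mixtures by their markers, and no marker of the 8 cell type and proliferation lists that a table held was at 0 in any library. Of 10 erythroid markers, the summed level in control replicate 1 of the neutrophils was 13579 (TMM-scaled CPM, the count relative to library size with a correction for library composition), against 716 and 2261 CPM in the remaining controls, and its cell cycle markers summed to 4132 CPM against 859 and 1039 CPM. Without that library, the log2 fold changes of the clock genes in neutrophils ran from −0.13 (Dbp) to 1.08 (Per1). Fold changes with and without it are given below for Arntl, Clock, Per1, Per3, Nr1d1, Nr1d2 and Dbp. Those of Per2, Cry1 and Cry2, the counts without overlap and the medians are given with it only. In bulk RNA, fewer cells of a type and less RNA per cell cannot be told apart.

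Per1 was the most abundant clock transcript per length in every group. By the FPKM values of the authors, which divide by gene length, it stood at 17.2 ± 3.45 (SD, n = 3) in control neutrophils and 38.3 ± 6.86 in CTT neutrophils. In monocytes it stood at 10.8 ± 0.445 FPKM with CTT and 9.60 ± 0.209 FPKM with anti-Ly6G. Nr1d2 came next, from 6.42 FPKM in control neutrophils to 10.1 FPKM in CTT neutrophils. Arntl and Per3 were the 2 lowest in all 4 groups, at 1.14 to 1.57 FPKM and 0.723 to 1.45 FPKM.

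**Figure D1:**
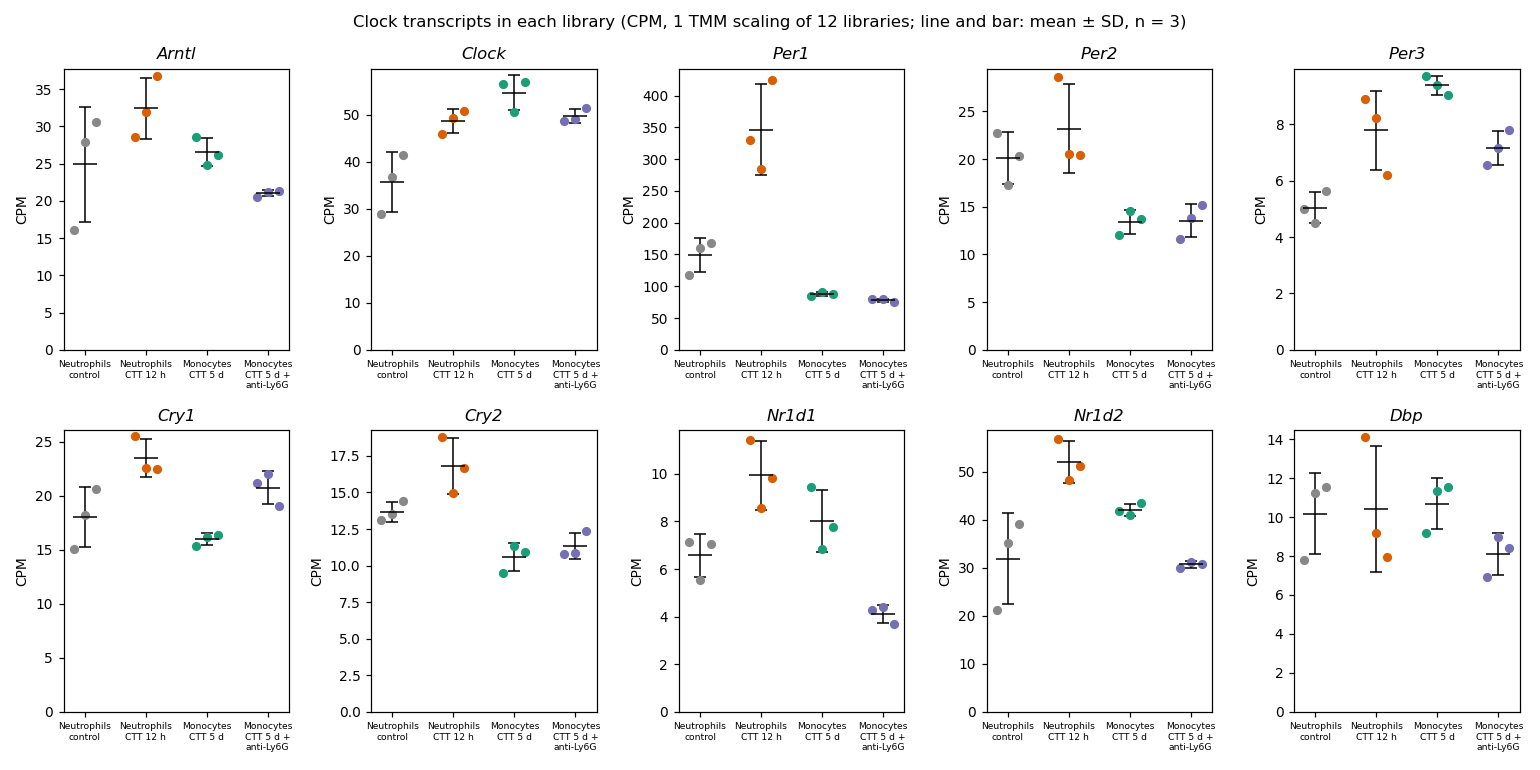
CPM of the 10 clock genes in each library (y axis, from 0, 1 TMM scaling over all 12 libraries) by group (x axis). Points are libraries, lines and bars are mean ± SD (n = 3). Per1 in CTT neutrophils lies between 285 and 425 CPM, above every other library, and Nr1d1 in anti-Ly6G monocytes lies between 3.70 and 4.39 CPM, below every other library.

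With all 12 libraries scaled together, CTT neutrophils had the highest mean of 7 genes (Arntl, Per1, Per2, Cry1, Cry2, Nr1d1 and Nr1d2), and CTT monocytes that of Clock, Per3 and Dbp. Anti-Ly6G monocytes had the lowest mean of 5 genes (Arntl, Per1, Nr1d1, Nr1d2 and Dbp). For Per1 all neighbours in the order stood apart, from 347 ± 71.6 CPM in CTT neutrophils over 149 ± 27.3 in control neutrophils and 87.6 ± 2.67 in CTT monocytes to 78.0 ± 2.64 CPM in anti-Ly6G monocytes. For Dbp no neighbours stood apart, with group means of 10.7, 10.4, 10.2 and 8.11 CPM. Per2 split by deposited table, with the neutrophil groups at 23.2 ± 4.71 and 20.1 ± 2.76 CPM and the monocyte groups at 13.6 ± 1.76 and 13.4 ± 1.27 CPM. The libraries overlapped within each table. Neutrophil markers did not split in this way. Scaled within each table, 12 of them summed to 4124 to 6091 CPM in control and 7712 to 12821 CPM in CTT neutrophils. In monocytes they summed to 4817 to 6646 CPM with CTT and 13354 to 18057 CPM with anti-Ly6G. Because the tables were made from separately selected cells taken at different times, this order describes the libraries.

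In neutrophils 12 h after CTT, clock transcripts stood at or above control levels, and none passed the test over all genes. Per1 had the largest log2 fold change of the 10, both with all libraries and without control replicate 1. Nr1d2, Per3 and Nr1d1 followed at 0.71, 0.63 and 0.60, which were 0.49, 0.62 and 0.66 without that library. The libraries of 7 of the 10 genes did not overlap between the groups, each of them higher after CTT (Clock, Per1, Per3, Cry1, Cry2, Nr1d1 and Nr1d2), where 13.6% of all tested genes were higher without overlap and 24.7% did not overlap in either direction. By the quasi-likelihood test of edgeR, adjusted over all genes after Benjamini and Hochberg, 0 of 10 passed, beside 0.567% of all genes that were called, all of them higher. At an unadjusted p under 0.05 there were 5 of 10 clock genes and 1830 of 13058 genes, and DESeq2 called 1 of 10. The median log2 fold change was 0.42 over the clock genes and −0.02 over all genes.

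Among the repressors, Per1 was at 111, 155 and 161 CPM without therapy and at 318, 272 and 404 CPM after CTT. Every CTT library was thus above every control library. The difference was 1.22 on the log2 scale (SE 0.20), or 2.33-fold, with an edgeR adjusted p = 0.0752. Without control replicate 1 it was 1.08 with an edgeR adjusted p = 0.0172, and DESeq2 gave an adjusted p = 2.63e-05. Over all 10 alternatives the adjusted p of Per1 ran from 2.63e-05 to 0.261, with 2 past the threshold, and the log2 fold change from 1.05 to 1.35. The summed level of 12 neutrophil markers was also higher after CTT, from 4124 to 6091 CPM in control and from 7712 to 12821 CPM in CTT libraries, with 2 of 12 called higher and 0 lower. The 8 monocyte markers summed to 2184 to 2693 CPM in control and to 3166 to 5522 CPM after CTT, with 0 of 8 called in edgeR, 4 at an unadjusted p under 0.05 and 1 called in DESeq2. The 10 erythroid markers summed to 716 to 13579 CPM in control and to 332 to 781 CPM after CTT. All 10 were lower at an unadjusted edgeR p under 0.05 (0 called in edgeR, 4 in DESeq2). The 8 cell cycle markers summed to 859 to 4132 CPM in control and to 683 to 948 CPM after CTT. The 8 B cell markers summed to 2937 CPM in control replicate 1 and to 6467 and 7184 CPM in the other controls. After CTT they summed to 6067 to 6392 CPM. The part of these markers in the clock values was not tested.

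The other Per and Cry genes lay closer to control. Per3, the Period gene with the least effect on rhythm when lost, read 4.73, 4.35 and 5.38 CPM in control and 8.61, 7.87 and 5.90 CPM after CTT (0.63 on the log2 scale, SE 0.22, edgeR adjusted p = 0.325). Its CTT libraries were all above control, the lowest of them by a narrow margin. Per2 overlapped between groups, at 21.5, 16.6 and 19.4 CPM against 27.7, 19.7 and 19.4 CPM. Cry1 and Cry2, the cryptochrome repressors, had log2 fold changes of 0.39 (SE 0.17) and 0.30 (SE 0.16), with edgeR adjusted p = 0.359 and 0.398.

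Among the control libraries, replicate 1 was the lowest for 7 of the 10 clock genes (Arntl, Clock, Per1, Cry1, Cry2, Nr1d2 and Dbp), as it was for 44.9% of all genes. Arntl, the partner of Clock in the activator pair, read 15.2 CPM in that library, 26.9 and 29.2 CPM in the other controls, and 27.6, 30.5 and 34.9 CPM after CTT. The other control libraries reached into the CTT range, and the difference of 0.38 on the log2 scale (SE 0.26, edgeR adjusted p = 0.475) was 0.15 without control replicate 1. Nr1d2 read 20.02, 34.0 and 37.4 CPM in control and 54.9, 46.0 and 48.7 CPM after CTT, a difference of 0.71 on the log2 scale (SE 0.24, edgeR adjusted p = 0.317), or 0.49 without that library. Clock was at 34.2 ± 6.25 and 46.7 ± 2.05 CPM (n = 3 each, 0.45, SE 0.17, edgeR adjusted p = 0.341, or 0.32 without control replicate 1). Nr1d1, which encodes REV-ERB alpha, read 6.76, 5.35 and 6.76 CPM in control and 11.05, 8.17 and 9.35 CPM after CTT, and here control replicate 1 did not stand apart. It differed by 0.60 on the log2 scale (SE 0.20, edgeR adjusted p = 0.319).

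Dbp, the D-box activator and a classical output of the clock, was the gene with the smallest difference in neutrophils. It read 7.36, 10.8 and 11.01 CPM in control and 13.6, 8.79 and 7.54 CPM after CTT. The groups overlapped over most of their range, and the difference was 0.04 on the log2 scale (SE 0.28, edgeR adjusted p = 0.955), whose sign changed when single libraries were left out. Exons of Dbp share 18.01% of their bases with Sphk2 on the opposite strand, and exons of Nr1d1 share 8.55% with Thra. The strand setting of the counting is not given, so it is not known whether reads in these stretches were counted for 1 of the genes or left out. Sphk2 had log2 fold changes of −0.05 in neutrophils and 0.32 in monocytes, where it rose (SE 0.08, edgeR adjusted p = 0.0257), and Thra of −0.89 and −0.08, neither of which passed. Their part in the values of Dbp and Nr1d1 was not tested.

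**Figure D2:**
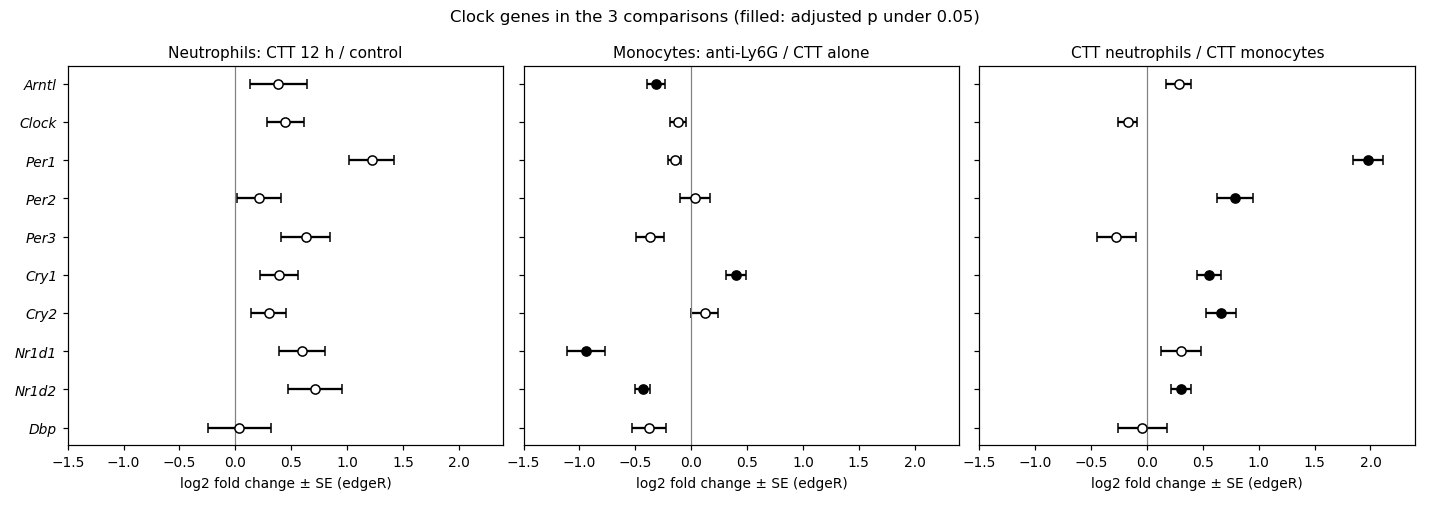
Log2 fold change ± SE (x axis, edgeR) of the 10 clock genes (y axis) in the 3 comparisons, with filled points for an adjusted p under 0.05. No point is filled for neutrophils after CTT, 4 are filled for monocytes with anti-Ly6G (Arntl, Nr1d1 and Nr1d2 lower, Cry1 higher), and 5 for CTT neutrophils over CTT monocytes.

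In monocytes 5 days after CTT, anti-Ly6G went with lower Rev-erb and Arntl transcripts and with higher Cry1. Nr1d1 fell to about 52% of its level with CTT alone, Nr1d2 and Arntl fell by less, and Cry1 rose by a log2 fold change of 0.40. In edgeR's quasi-likelihood test 3 of 10 clock genes fell, beside 5.12% of all 13294 tested genes, and 1 of 10 rose, beside 10.2% of all genes, which makes 4 of 10 in either direction beside 15.3%. Without overlap between the libraries 6 were lower (Arntl, Per1, Per3, Nr1d1, Nr1d2 and Dbp), where 15.4% of all genes were lower, and 1 was higher, where 20.6% were, so that 7 of 10 did not overlap beside 36.0% of all genes. Median log2 fold changes were −0.23 over the clock genes and 0.00 over all genes.

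Nr1d1 read 9.83, 7.12 and 8.05 CPM with CTT and 4.49, 4.61 and 3.92 CPM with anti-Ly6G. Every anti-Ly6G library was below every CTT library. The difference of −0.94 on the log2 scale (SE 0.17, edgeR adjusted p = 0.00808) stayed between −1.05 and −0.81 over all 10 alternatives, each of which called it. Nr1d2, the second Rev-erb gene, read 43.5, 42.6 and 45.0 CPM with CTT and 31.4, 32.8 and 32.7 CPM with anti-Ly6G. The libraries within each group lay close together, and the difference of −0.44 on the log2 scale (SE 0.07, edgeR adjusted p = 0.00313) was also called in all 10 alternatives.

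Arntl, the gene that REV-ERB proteins repress, was lower too. It read 29.7, 25.8 and 27.1 CPM with CTT and 21.6, 22.2 and 22.6 CPM with anti-Ly6G, with no overlap. It differed by −0.32 on the log2 scale (SE 0.08, edgeR adjusted p = 0.0370), and 5 of 10 alternatives kept the call. It was lost without CTT replicate 1 or 3 and without anti-Ly6G replicate 1, 2 or 3, with log2 fold changes of −0.37 to −0.26 and adjusted p of 0.0102 to 0.119 over all alternatives. Its partner Clock overlapped between the groups, at 56.9 ± 3.68 and 52.4 ± 1.84 CPM (−0.12, SE 0.07, edgeR adjusted p = 0.290).

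Cry1, the stronger repressor of the cryptochrome pair, was the one clock gene that rose. It read 15.98, 16.8 and 16.95 CPM with CTT and 22.3, 23.1 and 20.2 CPM with anti-Ly6G. The lowest anti-Ly6G library was above the highest CTT library, a difference of 0.40 on the log2 scale (SE 0.09, edgeR adjusted p = 0.0216). The call was kept in 6 of 10 alternatives, with adjusted p of 0.00352 to 0.0800, and was lost without CTT replicate 2 or 3 and without anti-Ly6G replicate 1 or 2. Cry2 overlapped between the groups (0.12, SE 0.12, edgeR adjusted p = 0.548).

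The Period genes and Dbp did not pass the test in monocytes. Per3 read 10.1, 9.77 and 9.37 CPM with CTT and 6.89, 7.50 and 8.26 CPM with anti-Ly6G, a difference of −0.37 on the log2 scale (SE 0.13, edgeR adjusted p = 0.0874) that DESeq2 called with an adjusted p = 0.0415 (0.0415 to 0.235 over the alternatives). Dbp read 9.58, 11.8 and 12.0 CPM with CTT and 7.29, 9.44 and 8.92 CPM with anti-Ly6G (−0.38, SE 0.15, edgeR adjusted p = 0.123). Without CTT replicate 1 it was −0.47 with an edgeR adjusted p = 0.0490, and over all alternatives the adjusted p ran up to 0.323. For both genes the groups did not overlap, in the case of Dbp by a margin smaller than the spread within either group. Per1 read 88.5, 94.0 and 90.5 against 83.4, 83.7 and 79.6 CPM (−0.15, SE 0.06, edgeR adjusted p = 0.118), and Per2 had a log2 fold change of 0.04 (SE 0.13).

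Marker levels moved with the antibody as well. The 12 neutrophil markers summed to 4817 to 6646 CPM with CTT and to 13354 to 18057 CPM with anti-Ly6G, and 11 of the 12 rose. The 8 macrophage markers summed to 5660 to 9591 CPM with CTT and to 4104 to 4746 CPM with anti-Ly6G, and 6 of the 8 fell. The 8 cell cycle markers summed to 1095 to 1256 CPM with CTT and to 1448 to 1671 CPM with anti-Ly6G, and 6 of the 8 rose. Of the 8 monocyte markers 5 rose and 2 fell, and their summed levels overlapped. The 10 erythroid markers summed to 1369 to 2190 CPM with CTT and to 779 to 1302 CPM with anti-Ly6G, with 3 that fell. Of the 8 B cell markers 1 fell in edgeR and 8 in DESeq2, and of the 8 T and NK cell markers tested 3 rose and 1 fell. The part of these markers in the clock values was not tested.

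Within a library, the level of Arntl against that of its repressors and outputs does not depend on the scaling between libraries. This balance was taken as the log2 CPM of Arntl minus the mean log2 CPM of Nr1d1, Nr1d2, Per3 and Dbp, and is a description without a test. In monocytes it was 1.06, 0.92 and 0.93 with CTT and 1.23, 1.12 and 1.20 with anti-Ly6G, so that every anti-Ly6G library was above every CTT library. With Per1 and Per2 added to the mean, the difference between the monocyte groups was 0.058 in place of 0.22. In neutrophils the balance was 0.88, 1.48 and 1.40 in control and 0.76, 1.26 and 1.55 after CTT. The control libraries lay within the range of the CTT libraries, and the spread within each was larger than the difference of −0.06 between them.

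**Figure D3:**
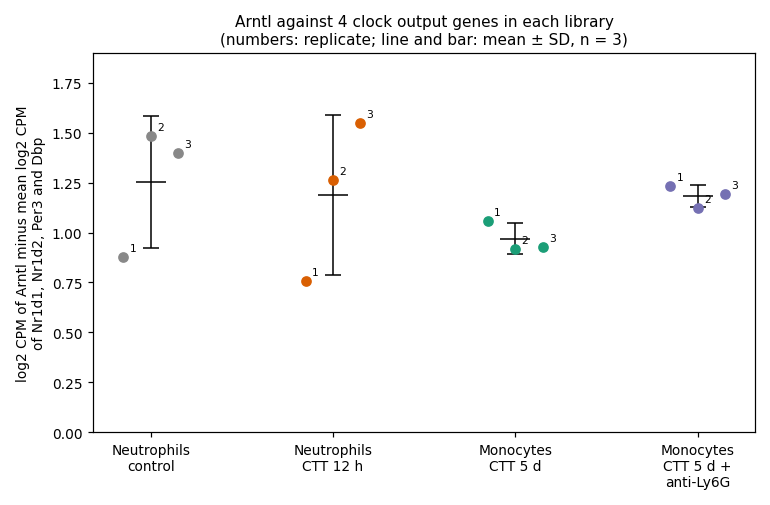
Log2 CPM of Arntl minus the mean log2 CPM of Nr1d1, Nr1d2, Per3 and Dbp (y axis) in each library by group (x axis), with points numbered by replicate and mean ± SD (n = 3). The neutrophil groups overlap, with replicate 1 lowest in both at 0.88 and 0.76, while the monocyte groups do not overlap (0.92 to 1.06 and 1.12 to 1.23).

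A second list of 24 clock-related genes held regulators, D-box factors and kinases outside the 10, of which 21 were tested. In neutrophils 1 rose, 0 fell and 20 did not pass (0.567% of all genes rose), with a median log2 fold change of 0.34, and DESeq2 called 3 higher. The gene that rose was Nfil3, which encodes the D-box repressor E4BP4. It read 25.5, 36.8 and 30.4 CPM in control and 93.4, 82.6 and 106 CPM after CTT, a difference of 1.60 on the log2 scale (SE 0.18, edgeR adjusted p = 0.0226). The call held without control replicate 1 but in none of the 5 fits that dropped another library, nor with the replicate number as a block (edgeR adjusted p = 0.0641), with adjusted p from 4.38e-12 to 0.129 over all alternatives.

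In monocytes 2 of the 21 rose, a share close to the 10.2% of all genes, and 3 fell, where 5.12% of all genes did, with a median log2 fold change of 0.06. Nfil3 rose here too, from 25.7, 22.1 and 19.9 CPM with CTT to 52.3, 53.9 and 46.5 CPM with anti-Ly6G (1.17 on the log2 scale, SE 0.11, edgeR adjusted p = 0.000339). Tef, a D-box activator related to Dbp, fell by 0.55 on the log2 scale (SE 0.07, edgeR adjusted p = 0.0012), from 63.7, 66.9 and 69.4 CPM to 45.2, 43.4 and 48.0 CPM. Ciart, which encodes the clock repressor CHRONO, fell from 10.99, 11.7 and 10.8 CPM to 5.52, 4.64 and 5.66 CPM (−1.08, SE 0.14). Bhlhe40, which encodes DEC1, a repressor that competes for E-boxes, fell by 0.41 (SE 0.06), and Noct, the rhythmic phosphatase nocturnin, rose by 0.65 (SE 0.16). Nfil3, Tef, Ciart and Bhlhe40 were called in all 10 alternatives, while Noct was lost without CTT replicate 2 or 3 and without anti-Ly6G replicate 1 or 2. Of the D-box factors, the repressor gene Nfil3 was thus higher and the activator gene Tef lower, while Dbp at −0.38 did not pass. Hlf went the opposite way to Tef, higher by 1.39 on the log2 scale without overlap (SE 0.47). It did not pass either (edgeR adjusted p = 0.0777) and lay below 1 CPM in all 6 monocyte libraries.

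**Figure D4:**
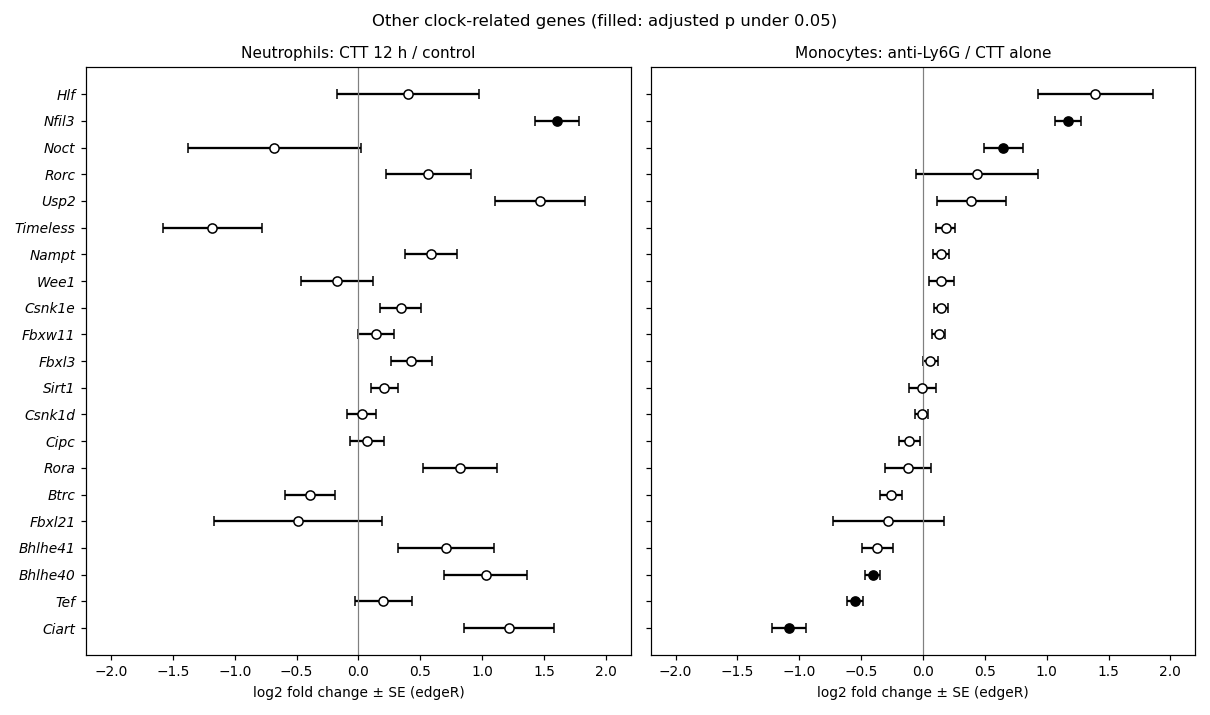
Log2 fold change ± SE (x axis, edgeR) of 21 other clock-related genes (y axis, ordered by the monocyte value) in neutrophils after CTT and in monocytes with anti-Ly6G, with filled points for an adjusted p under 0.05. Nfil3 is filled in both panels at 1.60 and 1.17, and Ciart, Tef, Bhlhe40 and Noct in the monocyte panel alone.

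Some leukocyte genes are known to oscillate or to answer to the clock, and 12 of them formed a further list. In neutrophils 1 of 12 rose (0.567% of all genes), Cxcl2, a neutrophil attractant whose release in aging neutrophils is tied to Bmal1 (1.91 on the log2 scale, SE 0.14, edgeR adjusted p = 0.0131), and the list's median was 0.84. That call was lost in the 5 fits that dropped a library other than control replicate 1, with adjusted p of 8.59e-32 to 0.119 over all alternatives. In monocytes 5 of 12 rose and 0 fell (10.2% and 5.12% of all genes), with a median of 0.42, among them Cxcr2 (1.05, SE 0.12), Ccr2 (1.25, SE 0.14), Cxcl2 (0.90, SE 0.11) and the integrin gene Itgal (0.43, SE 0.07). Cxcr2 and Ccr2 also belong to the neutrophil and monocyte marker lists, and Ccr2 encodes the protein used to capture the cells.

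Glucocorticoid-induced genes were listed because Per1 is among them, and the list also held Nr3c1, the gene of the glucocorticoid receptor. Of 8 genes, Per1 included, 0 rose and 0 fell in neutrophils in the edgeR test, with 5 at an unadjusted p under 0.05, 2 called higher by DESeq2 and a median log2 fold change of 0.77. In monocytes 0 of 8 passed in edgeR and 0 in DESeq2, with 1 at an unadjusted p under 0.05 (Per1) and a median of −0.05. For 6 of the 8 the neutrophil libraries were higher after CTT without overlap, as for 13.6% of all genes.

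CTT neutrophils were also set against CTT monocytes. Selection, time after CTT and deposited table cannot be told apart in this contrast, and it shares its libraries with the other comparisons. Of the 10 clock genes 5 were higher in the neutrophils and 0 lower, where 21.4% of 13209 genes were higher and 21.9% lower (43.2% in either direction). Without overlap 5 were higher and 2 lower (Clock and Per3), where 27.4% of all genes were higher and 29.0% lower (56.3% in either direction). Per1 was higher by 1.98 on the log2 scale (SE 0.14, edgeR adjusted p = 4.56e-05), at 330, 282 and 418 CPM against 85.1, 89.5 and 86.7 CPM in the monocytes. Per2 was higher by 0.79 (SE 0.16), Cry2 by 0.66 (SE 0.14), Cry1 by 0.55 (SE 0.11) and Nr1d2 by 0.30 (SE 0.09), with edgeR adjusted p from 0.00341 (Cry1) to 0.0231 (Nr1d2). The call on Nr1d2 was lost when any 1 of the CTT monocyte libraries was left out. Of the negative arm, 4 of 5 Per and Cry genes were thus higher in the neutrophil libraries, and Per3 (−0.27, SE 0.17, edgeR adjusted p = 0.227) was not. Nr1d1 (0.30, SE 0.18, edgeR adjusted p = 0.206), Arntl (0.28, SE 0.11, edgeR adjusted p = 0.0737, or 0.0276 without CTT neutrophil replicate 1), Clock (−0.17, SE 0.08, edgeR adjusted p = 0.123) and Dbp (−0.04, SE 0.22, edgeR adjusted p = 0.893) did not pass. In the same contrast 8 of 8 macrophage and 6 of 10 erythroid markers were lower in the CTT neutrophils. Higher were 8 of 8 T and NK cell, 6 of 8 B cell and 7 of 12 neutrophil markers. Of 8 monocyte markers 1 was higher and 1 lower, and of 5 dendritic markers 1 was lower. Ly6g (0.60, edgeR adjusted p = 0.0710) and Ccr2 (−0.25, edgeR adjusted p = 0.326), the genes of the captured proteins, overlapped and did not pass. The part of these markers in the clock values was not tested.

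In this contrast, where 21.4% of all genes were higher and 21.9% lower, 8 of 21 genes of the second list were higher in CTT neutrophils and 1 lower. Ciart was higher by a log2 fold change of 2.31 (SE 0.10), Bhlhe40 by 2.41 (SE 0.22) and Nfil3 by 2.17 (SE 0.13). Sirt1, a deacetylase that acts on clock proteins, was higher by 0.56 (SE 0.11), and Rora, which encodes an activator at ROR response elements, by 0.80 (SE 0.19). Timeless, known for DNA replication in mammals, was lower by −0.83 (SE 0.13). Of the 8 cell cycle markers 5 were lower and 0 higher in the same contrast, and the part of cycling cells in the Timeless value was not tested. Of the 12 leukocyte rhythm genes 10 were higher and 0 lower, among them Cxcl2 (2.65) and the chemokine receptor gene Cxcr4 (2.69) on the log2 scale. Of the 8 genes of the glucocorticoid list 5 were higher, Per1, Klf9 (1.99), Tsc22d3 (0.95), Zbtb16 (1.26) and Sgk1 (0.51), and Ddit4 was lower (−0.999). The libraries of Sgk1 overlapped, and its call was lost without CTT monocyte replicate 2 or 3 or CTT neutrophil replicate 2 or 3, with edgeR adjusted p up to 0.133 and log2 fold changes of 0.34 to 0.70.

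Likeness of pattern was measured by Pearson's r of log2 CPM over the 6 neutrophil and the 6 monocyte libraries, taking for each gene the smaller of both r among 12793 genes. It is a description of 6 libraries in 2 groups each, and with so many genes high values are found for any pattern. Nearest to Arntl were Rasa1 (r = 0.981 in neutrophils and 0.982 in monocytes), Tmcc3 (0.976 and 0.971) and Ptprj (0.969 and 0.988). Nearest to Nr1d1 were Fndc10 (0.911 and 0.946), Kctd6 (0.904 and 0.931) and Tent2 (0.899 and 0.921). Nearest to Dbp were Scaf11 (0.931 and 0.967), Ublcp1 (0.922 and 0.954) and Zfp169 (0.969 and 0.919). None of the 9 was a gene of the clock lists. Among the clock genes, Arntl and Clock had r = 0.927 in neutrophils and 0.836 in monocytes, and Nr1d1 and Nr1d2 had 0.676 and 0.945. Arntl and Cry1 had 0.807 in neutrophils and −0.944 in monocytes, where the groups differed in opposite directions for these genes.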

How the data were processed

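Raw read counts were deposited by the authors as a neutrophil and a monocyte table, made with HISAT2, mm10 and HTSeq, per the submitters' processing notes. Their versions, the annotation and the use of strand in counting are not given in those sources. They also deposited FPKM values, used here to compare levels between genes. Every value column matched a sample by its description (0 left out).

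Counts were tested in R 4.3.3 with edgeR 4.0.16 (filterByExpr, TMM, quasi-likelihood F test, two-sided, Benjamini-Hochberg over all tested genes, threshold 0.05). The third comparison joined the tables on Entrez gene ID (16283 shared genes). The SE is the absolute log2 fold change divided by the square root of F. CPM are TMM-scaled within each comparison unless 12 libraries are named. Log2 CPM used a prior count of 0.5. Alternatives were DESeq2 size factors, no filter, DESeq2 1.42.0, a replicate block and leaving out each library. The calling step was also run on simulated data with the same spread for all genes and no deviating library. It thus does not show how calls behave with the uneven libraries seen here.

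The 10 genes and the gene lists were chosen with earlier results of these data known. Named from the lists were genes past the threshold, at most 6 per list and comparison by p; 1 such gene is not reported here.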

Additional observations from a re-analysis of the deposited data

How the results depend on the processing

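With 3 libraries per group, calls moved with single libraries. In neutrophils, 74 genes rose and 0 fell in edgeR, against 456 and 107 in DESeq2 and 4 and 1 with the replicate number as a block. Leaving out 1 library gave 0 to 257 that rose and 0 to 31 that fell, the highest without control replicate 1. Of the clock genes 1 (Per1) rose in DESeq2 and 0 to 1 with 1 library left out. In monocytes 1354 genes rose and 681 fell in edgeR, and 1204 fell in DESeq2 and 1043 with the block. Leaving out 1 library gave 706 to 1687 that rose and 177 to 1168 that fell. Clock genes that rose then numbered 0 to 1 and those that fell 2 to 3. Between CTT neutrophils and CTT monocytes 4 to 6 were higher.

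Signs changed when 1 library was left out for values near 0. These were Dbp in neutrophils (−0.25 to 0.21, with −0.13 without control replicate 1) and Per2 in monocytes (−0.058 to 0.13, with −0.036 without CTT replicate 1). Dbp between CTT neutrophils and CTT monocytes also changed sign (−0.32 to 0.12, with 0.02 and 0.04 in 2 fits). So did the Arntl balance in neutrophils (−0.25 to 0.15, with 0.05 and 0.01 in 2 fits). Adding Per1 and Per2 moved the balance in monocytes from 0.22 to 0.058.

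The labels do not say that equal replicate numbers share a mouse or day. Deviations of same-numbered neutrophil libraries correlated at 0.183, 0.00662 and 0.175, and of monocyte libraries at 0.0443, −0.0233 and 0.0603. Libraries with different numbers correlated at −0.209 to 0.141 in neutrophils and at −0.0793 to 0.0322 in monocytes. The values 0.183 and 0.175, and 0.0443 and 0.0603, lay above these ranges. Such low values cannot decide whether equal numbers are pairs. The numbers were not taken as pairs because the labels do not give them as such. With the replicate block, 0 clock genes passed in neutrophils, and 1 rose and 3 fell in monocytes, as without it.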

Other observations

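Among the 3 CTT neutrophil libraries, replicate 1 had the highest level of 7 of the 10 clock genes (Per2, Per3, Cry1, Cry2, Nr1d1, Nr1d2 and Dbp) and the lowest of Arntl and Clock. Over all tested genes it was highest for 36.9% and lowest for 38.2%. Such skew was not particular to it. Control neutrophil replicate 3 was highest for 8 clock genes and lowest for 0, against 35.2% and 33.3% of all genes. Control replicate 1 was lowest for 7, against 44.9%, and anti-Ly6G monocyte replicate 1 was lowest for 7 and highest for 0, against 34.8% and 35.8%. These libraries were looked at after their values were seen, and no test was made. In CTT neutrophil replicate 1 Dbp read 13.6 CPM against 8.79 and 7.54 CPM, and Tef read 68.2 against 44.1 and 43.7 CPM. Fkbp5, a glucocorticoid-induced cochaperone gene, read 253 CPM against 74.4 and 52.3 CPM in the same library, and Zbtb16, another gene of that list, 14.9 against 9.77 and 7.27 CPM. Per1 did not follow, at 318 CPM in that library against 272 and 404 CPM. Of the same list, Sgk1 was lowest there (128 against 135 and 181 CPM). Klf9 (23.2 against 17.9 and 24.6 CPM) and Nr3c1 (178 against 192 and 177 CPM) lay between the other CTT libraries. Tsc22d3 (678 against 591 and 561 CPM) and Ddit4 (66.7 against 65.2 and 49.9 CPM) were highest in that library.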
